A study of Ovis aries with 20 samples.

Results

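The histone deacetylases described here are the zinc-dependent enzymes HDAC1, HDAC2, HDAC3, HDAC4, HDAC5, HDAC6, HDAC7, HDAC8, HDAC9 and HDAC11. They are the rows with these gene names, 10 of the 28524 genes in the deposited table of sheep ovarian RNA sequencing. Histone deacetylases remove acetyl groups from lysines of histones and other proteins, and on histones this is associated with compact chromatin and low transcription. Class I enzymes (HDAC1, HDAC2, HDAC3 and HDAC8) are mostly nuclear. HDAC1 and HDAC2 are the closely related catalytic subunits of the SIN3, NuRD and CoREST corepressor complexes, HDAC3 is that of the complex built on NCOR1, and HDAC8 acts outside such complexes. Class IIa enzymes (HDAC4, HDAC5, HDAC7 and HDAC9) have little deacetylase activity of their own and bind MEF2 transcription factors, and kinases move them out of the nucleus by creating sites for 14-3-3 proteins. HDAC6, of class IIb, works on tubulin and other cytoplasmic proteins, and HDAC11 is the sole member of class IV. In the follicle, granulosa cells convert androgen to estrogen and the theca around them supplies that androgen. Nuclear receptors and other transcription factors recruit deacetylases through corepressors, in steroid-making cells as elsewhere.

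The libraries came from adult female offspring of ewes that had been injected in pregnancy with testosterone propionate (100 mg, or 1.2 mg/kg, intramuscularly 2 times per week from gestational day 30 to day 90) or with vehicle. The offspring are called prenatal T animals and controls. Their ovaries were collected at 21 months of age, 18 h after the later of 2 prostaglandin F2α injections (10 mg each, 11 days apart) that synchronised estrus in both treatments. Granulosa and theca cells were cut by microdissection from several antral follicles of each animal and pooled by layer, so that each library is a pool of follicles and the animal is the replicate. The 19 libraries used were granulosa cells of 4 controls (sheep 224, 244, 246 and 268), granulosa cells of 5 prenatal T animals (sheep 209, 210, 230, 276 and 315), theca cells of 5 controls (the same 4 and sheep 139) and theca cells of the same 5 prenatal T animals. Granulosa cells of sheep 139 are listed in the labels and were not analysed here. The groups ask of each member whether it differed between the layers, and whether it differed in adults that had met extra testosterone as fetuses.

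Libraries held 12.7 to 26.0 M reads. Leaving out sheep 209, the layer labels matched the cell type markers: 11 of 12 granulosa markers were higher in granulosa cells, and 12 of 12 theca markers, 11 of 12 endothelial markers and 8 of 8 markers of smooth muscle and pericytes were higher in theca cells. Both libraries of prenatal T sheep 209 stood apart. AMH, FSHR, CYP19 and CYP17A1, which mark granulosa and androgen-making theca cells, were at 0 in both of them. They are 3 of the 12 granulosa markers and 1 of the 12 theca markers, and no other marker of these lists was at 0. Summed granulosa markers were 24130 in the granulosa library of sheep 209 against 59447 to 205930 in the other 8. Summed theca markers were 390912 in the theca library of sheep 209 against 606879 to 896478 in the other 9. The summed level of 7 epithelial markers was 85620 in its granulosa library against 147 to 4004 in the other 8, and that of 9 leukocyte markers was 19358 against 218 to 2866. Of the members, in the granulosa library of sheep 209, 3 of the 10 deacetylases lay above and 6 below the range of the other animals, and in its theca library 4 lay above and 3 below. Every result below is therefore given with and without this animal where the difference matters. In bulk RNA of this kind, fewer cells of a type and less RNA per cell cannot be told apart.

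All 10 members were expressed in every library and passed the filter on low values, with 29 to 173 reads for HDAC11, the least covered, 32 to 443 for HDAC9, 105 to 472 for HDAC8 and more for the others. Levels are normalized counts, which are read counts scaled for library size but not for transcript length, so levels of different genes are not ranked against each other. Changes are differences of log2(value + 1) between groups, given ± SE of the limma fit. Over the groups without sheep 209, HDAC3 was among the steadiest members, with a coefficient of variation between animals of 6.09 to 9.54%, and HDAC9 among the most variable, with 15.2 to 39.3%.

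**Figure D1:**
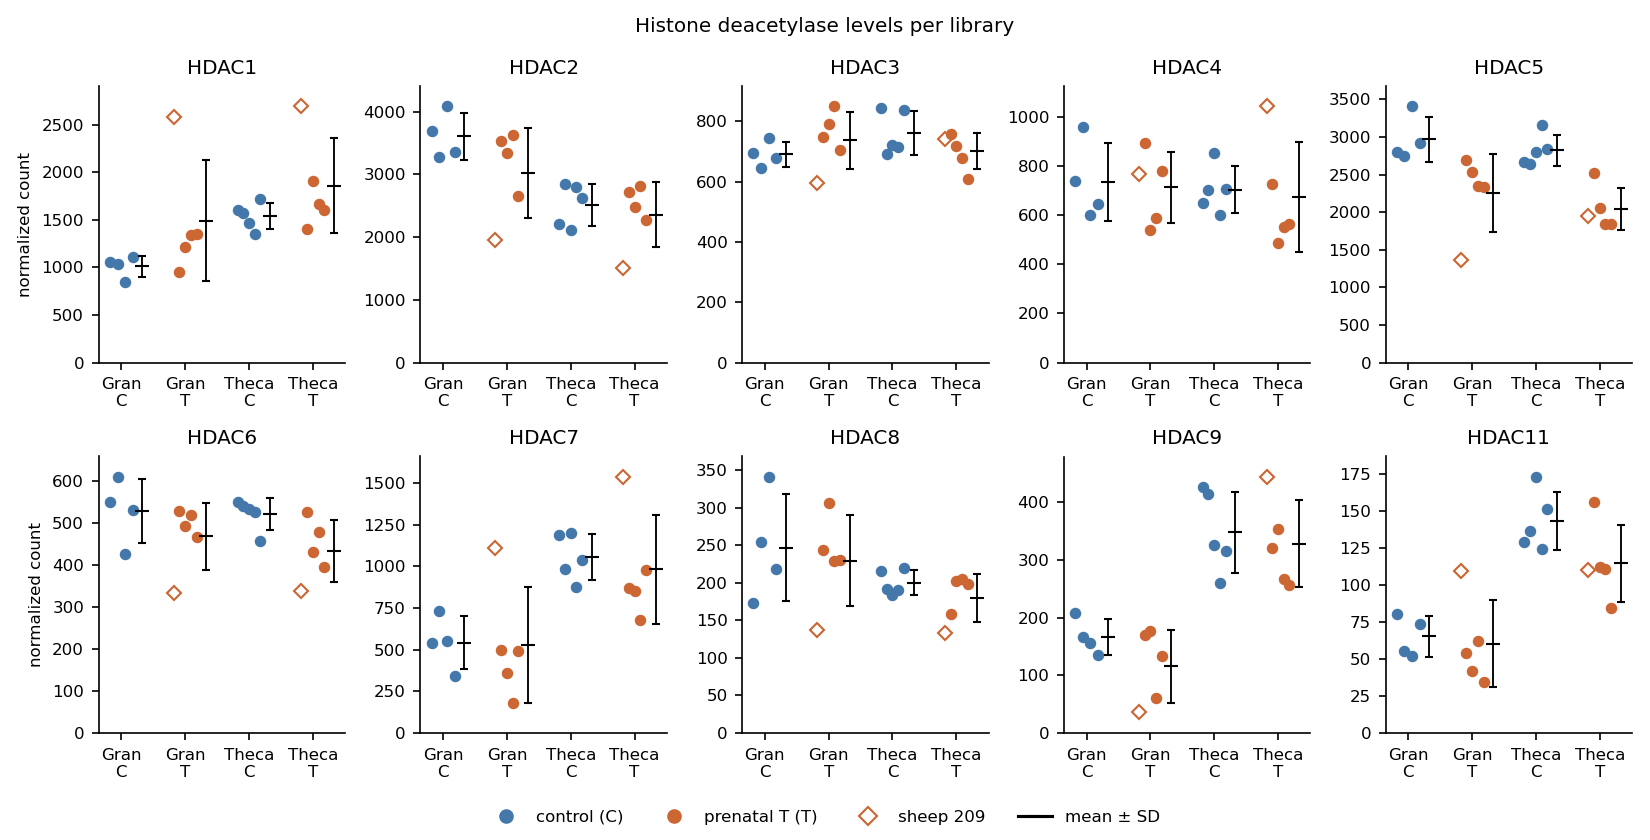
Normalized count of each histone deacetylase (vertical axes, from 0) in every library, by group: granulosa (Gran) and theca cells of controls (C, blue) and prenatal T animals (T, orange), with open diamonds for sheep 209 and bars for the mean ± SD of all libraries of the group. HDAC9 is lower in granulosa than in theca cells of every animal, HDAC5 is the panel in which all prenatal T libraries lie below all controls in both layers, and sheep 209 lies far from its group for HDAC1, HDAC2 and HDAC7.

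Between the layers, 6 of the 10 deacetylases differed: HDAC2 and HDAC8 were higher in granulosa cells, and HDAC1, HDAC7, HDAC9 and HDAC11 were higher in theca cells. HDAC3, HDAC4, HDAC5 and HDAC6 did not pass the test. Layers of the same animals were compared with limma, with the animal as a block and adjusted p under 0.05 as the threshold. The same test called 57.2% of 16269 genes, 29.2% as higher in granulosa cells and 28% as higher in theca cells. The members' count is thus near that of genes at large, and it is the identity and direction of each member that is described here. Without sheep 209, 7 of 10 members passed against 65.2% of 16021 genes, 32.9% higher in granulosa and 32.2% higher in theca cells.

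HDAC1 and HDAC2, the closely related class I pair, lay on opposite sides. Without sheep 209, HDAC1 ranged from 848 to 1352 in granulosa cells (median 1080, n = 8) and from 1351 to 1906 in theca cells (median 1599, n = 9), and only the ends of these ranges met. HDAC2 ranged from 2654 to 4080 in granulosa cells (median 3446) and from 2113 to 2842 in theca cells (median 2620). HDAC1 was higher in theca cells and HDAC2 higher in granulosa cells in 9 of 9 animals, sheep 209 included. With all animals, the layer difference, granulosa minus theca, was -0.48 ± 0.08 for HDAC1 (adjusted p = 9.82e-05). For HDAC2 it was 0.43 ± 0.07 (adjusted p = 6.1e-05). In linear terms HDAC1 stood at 0.715 times and HDAC2 at 1.34 times its theca level.

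The ratio of HDAC2 to HDAC1 within a library shows the same contrast without any scaling between libraries. It was chosen after the values were seen and is given without a test. In control granulosa cells the ratio was 3.16, 4.81, 3.04 and 3.51 in sheep 244, 246, 268 and 224, and in prenatal T granulosa cells it was 3.69, 2.74, 2.70 and 1.96 in sheep 210, 230, 276 and 315. In theca cells of the same animals and of sheep 139 it ran from 1.30 to 2.07 (median 1.53). Every animal with both layers had the higher ratio in granulosa cells. Sheep 209 had the lowest ratio of either layer, 0.752 in granulosa and 0.559 in theca cells.

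**Figure D2:**
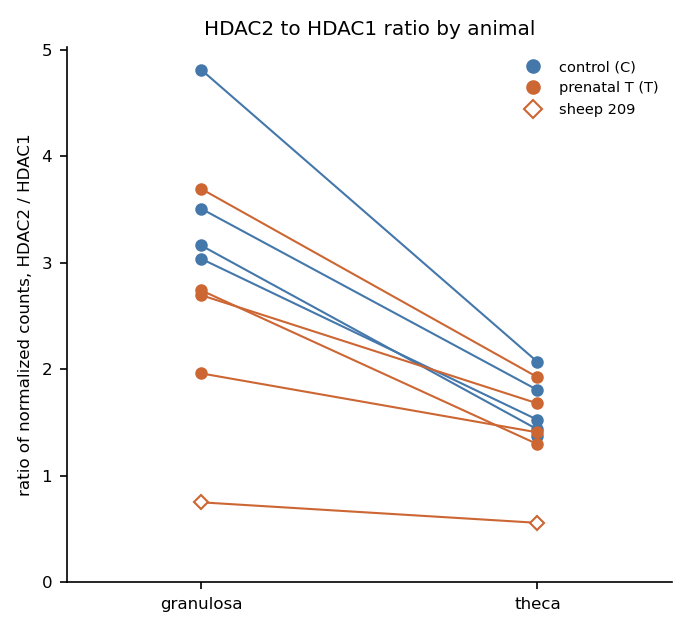
Ratio of HDAC2 to HDAC1 normalized counts (vertical axis, from 0) in granulosa and theca libraries, with lines joining the layers of 1 animal (blue for controls, orange for prenatal T, open diamonds for sheep 209). All 9 lines fall from granulosa to theca, and the granulosa median without sheep 209 is 3.10 against 1.53 in theca cells.

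The other class I members differed less. HDAC8, which removes acetyl groups from the cohesin subunit SMC3, ranged from 173 to 341 in granulosa cells (median 238) and from 159 to 220 in theca cells (median 199) without sheep 209. With all animals, it was higher in granulosa cells in 7 of 9, with a difference of 0.30 ± 0.11 (adjusted p = 0.0213). This call rests on several animals: it was lost when sheep 210, 230, 244 or 246 was left out (0.26, 0.27, 0.27 and 0.21), while the direction stayed, and over 20 alternatives the adjusted p ran from 0.00729 to 0.157. HDAC3, the catalytic subunit bound by NCOR1, had a median of 725 in granulosa and 719 in theca cells without sheep 209, a difference of -0.025 ± 0.06 with all animals (adjusted p = 0.743). The difference had either sign over the alternatives, from -0.06 to 0.06.

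Among the class IIa enzymes, HDAC7 and HDAC9 were lower in granulosa cells, and HDAC4 and HDAC5 were nearly level. HDAC7, known from endothelial cells and thymocytes, ranged from 182 to 733 in granulosa cells (median 496) and from 678 to 1200 in theca cells (median 977) without sheep 209. Its difference with all animals was -1.03 ± 0.15 (adjusted p = 2.02e-05), and it was higher in theca cells in 9 of 9 animals. HDAC9, known from muscle and vessel wall, ranged from 36.8 to 208 in granulosa cells and from 257 to 444 in theca cells with all animals, so that every theca library lay above every granulosa library. Its difference was -1.35 ± 0.21 (adjusted p = 2.43e-05) with all animals and -1.13 ± 0.14 without sheep 209. The lowest granulosa value of HDAC9 was that of sheep 209, whose own theca library held the highest theca value.

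HDAC4 had a layer difference of 0.08 ± 0.09 (adjusted p = 0.484) and HDAC5 of 0.09 ± 0.08 (adjusted p = 0.359). Without sheep 209 the value of HDAC5 was 0.17 ± 0.05 and passed (adjusted p = 0.00624), higher in granulosa cells in 7 of 8 animals. The exception was control sheep 244, with a difference of -0.027.

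HDAC6, the cytoplasmic tubulin deacetylase, had a median of 524 in granulosa and 526 in theca cells without sheep 209. Its difference with all animals was 0.07 ± 0.07 (adjusted p = 0.419). HDAC11, which removes long-chain fatty acyl groups, was lower in granulosa cells, at 34.3 to 80.0 (median 54.5) against 84.2 to 173 (median 129) in theca cells without sheep 209. These ranges do not overlap. The difference with all animals was -1.08 ± 0.14 (adjusted p = 5.49e-06), and the mean within 8 animals without sheep 209 was -1.21 ± 0.31 (SD). In sheep 209 alone the layers were level for this gene, at 109 in granulosa and 110.1 in theca cells. Without sheep 209, HDAC9 and HDAC11 were the 2 of 10 members whose layers did not overlap, against 16.5% of 16269 genes.

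**Figure D3:**
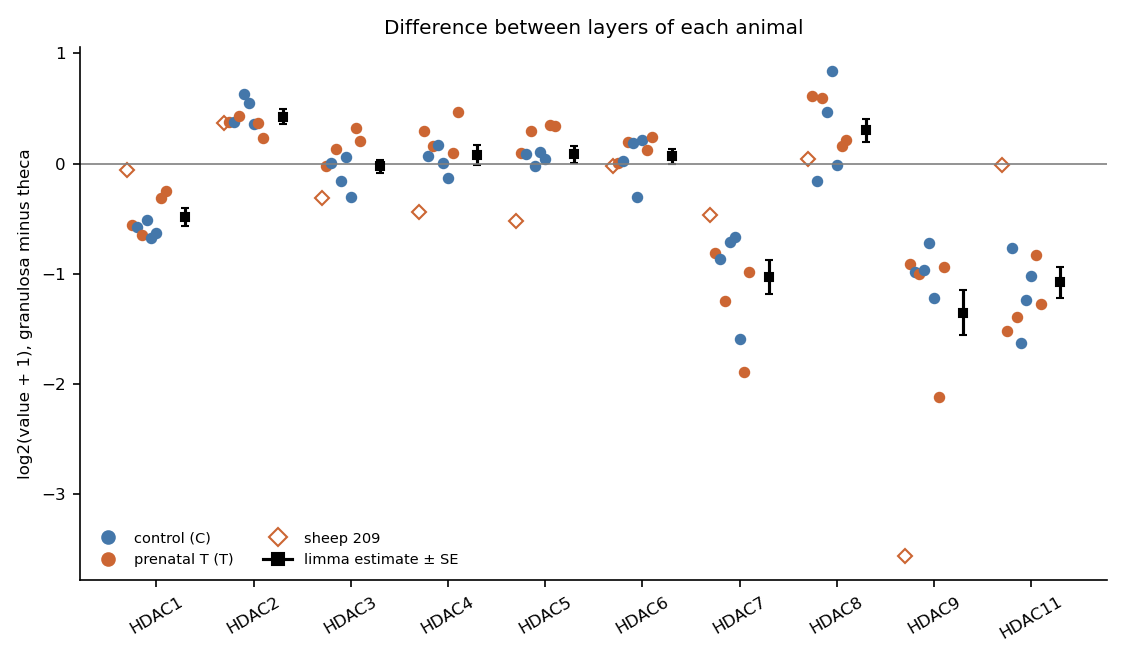
Difference of log2(value + 1) between granulosa and theca cells of each of 9 animals (vertical axis, points; blue for controls, orange for prenatal T, open diamonds for sheep 209), with the limma estimate ± SE as black squares. HDAC1, HDAC7, HDAC9 and HDAC11 lie below 0 and HDAC2 above 0 in all 9 animals. Sheep 209 is the highest point for HDAC1, HDAC7 and HDAC11 and the lowest for HDAC3, HDAC4, HDAC5 and HDAC9.

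Other cell types of the follicle wall moved with these differences. Within 8 animals without sheep 209, the summed theca markers in granulosa cells were 6.62% (median) of their level in theca cells, endothelial markers 23.2%, markers of smooth muscle and pericytes 15.4% and leukocyte markers 52.9%. The members higher in theca cells had medians of 41.3% for HDAC11, 50.7% for HDAC9, 52.7% for HDAC7 and 67.5% for HDAC1. All of them lay above the shares of theca, endothelial and smooth muscle markers, and only HDAC1 lay above that of leukocyte markers. HDAC2 stood at 130%, and summed granulosa markers at 430%. The part of vessels, smooth muscle or carried-over theca in the levels of HDAC7, HDAC9 and HDAC11 was not tested.

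After prenatal T, no deacetylase passed the test in either layer. The test called 0% of 14724 genes in granulosa cells and 0% of 15492 in theca cells, with 622 and 1192 genes at an unadjusted p under 0.05. DESeq2 called 16 and 9 genes and edgeR 0 and 0, with no member among them. By their estimates alone, 8 of 10 members were lower in prenatal T granulosa cells (median change -0.19) and 9 of 10 in prenatal T theca cells (median -0.14), where the medians of all genes were -0.015 and 0.00015. Without sheep 209, 7 of 10 members were lower in granulosa cells (median -0.11) and 8 of 10 in theca cells (median -0.20), where 47.9% and 48.3% of all genes lay above 0. The layers come from the same animals, so these counts are not independent of each other.

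HDAC5, a class IIa enzyme known for restraining MEF2 in heart and muscle until a kinase releases it, had the lowest p of the members in both layers. In control granulosa cells its normalized count was 2742, 3405, 2923 and 2804 in sheep 244, 246, 268 and 224, and in prenatal T granulosa cells it was 1361, 2697, 2531, 2347 and 2329 in sheep 209, 210, 230, 276 and 315. In control theca cells it was 2672, 2793, 3164, 2841 and 2645 in sheep 139, 244, 246, 268 and 224, and in prenatal T theca cells 1951, 2521, 2057, 1842 and 1843 in the same order of animals. Every prenatal T library thus lay below every control of its layer, by a narrow margin in granulosa cells (2697 in sheep 210 against 2742 in sheep 244). HDAC5 was the single member with this pattern in either layer. Over 14382 genes tested in both, prenatal T lay below control without overlap in 1.72% in granulosa cells, in 1.01% in theca cells and in 0.125% (18 genes) in both. Without sheep 209 HDAC5 kept this pattern, and the shares were 2.69%, 2.13% and 0.285% (41 genes).

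In granulosa cells the HDAC5 means were 2968 ± 300.4 in controls (SD, n = 4) and 2253 ± 521 in prenatal T animals (n = 5), a change of -0.43 ± 0.20 (unadjusted p = 0.0593, adjusted p = 0.875, limma). Sheep 209 weighs on this value: without it the prenatal T mean was 2476 ± 173 (n = 4) and the change -0.26 ± 0.10 (adjusted p = 0.712). In theca cells the means were 2823 ± 208 (n = 5) and 2043 ± 282 (n = 5), a change of -0.47 ± 0.11, or 0.720 times the control level. Its unadjusted p of 0.00143 ranked 11 of 15492 genes, and its adjusted p was 0.644. Without sheep 209 the change was -0.46 ± 0.11, the rank 54 of 15304 and the adjusted p 0.371. DESeq2 gave the lowest adjusted p in theca cells, 0.0915 with all animals and 0.0754 without sheep 209, and over 19 alternatives the adjusted p ran to 0.829. None of them passed.

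Averaged over both layers with the animal as a block, an estimate added after the values were seen, HDAC5 changed by -0.45 ± 0.15 (adjusted p = 0.643) with all animals and by -0.35 ± 0.08 (adjusted p = 0.302) without sheep 209. That test called 0% of 16269 genes, with 1145 at an unadjusted p under 0.05. Marker levels of other cells also differed between the groups in which HDAC5 was compared. Without sheep 209, summed markers of smooth muscle and pericytes (8 of 8 in the table) were 28641 to 44040 in control and 18222 to 27100 in prenatal T granulosa cells, which do not overlap, and 120138 to 249964 and 169743 to 200061 in theca cells, which do. The 12 theca markers summed to 659690 to 896478 in control and 606879 to 721244 in prenatal T theca cells. Read depth was 13.6 to 26.0 M in control and 12.7 to 16.1 M in prenatal T granulosa cells. Their part in the HDAC5 values was not tested.

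**Figure D4:**
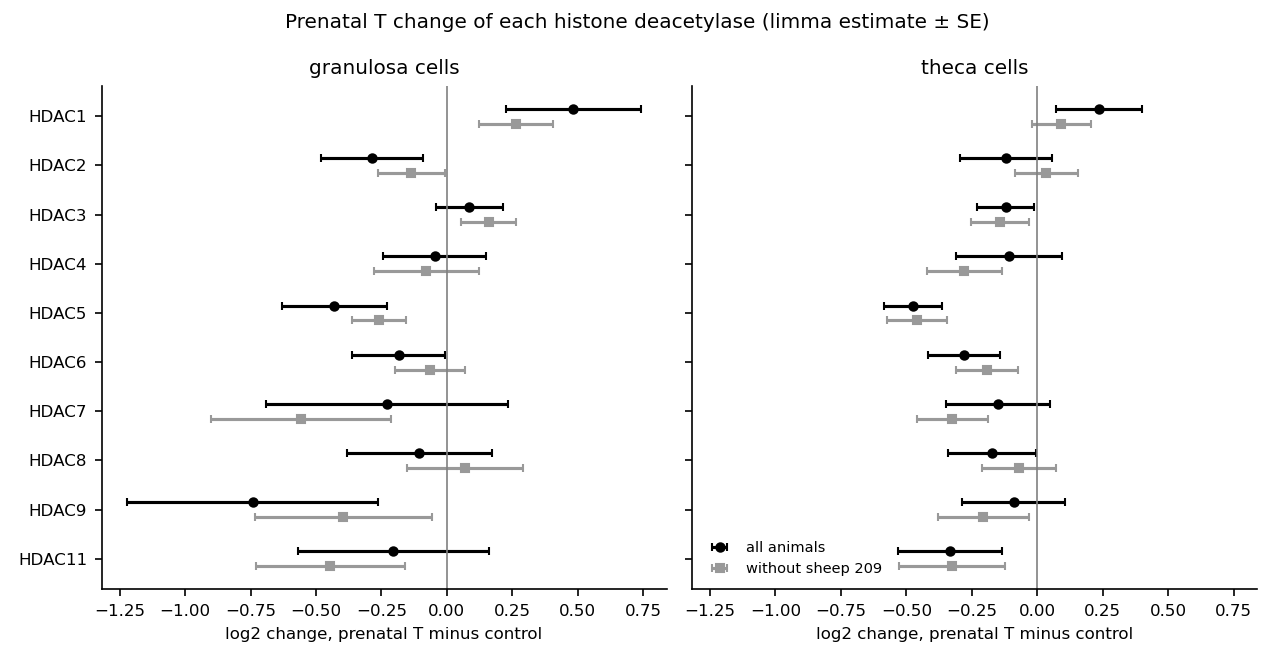
Change of each histone deacetylase on the log2 scale, prenatal T minus control (horizontal axes), in granulosa cells (left) and theca cells (right), as limma estimates ± SE with all animals (black circles) and without sheep 209 (grey squares). HDAC5 in theca cells is -0.47 ± 0.11 with all animals and -0.46 ± 0.11 without sheep 209, while HDAC1, HDAC7 and HDAC9 in granulosa cells shift when that animal is left out, and no estimate passes the adjusted threshold.

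Among the class I members, HDAC1 had the sole positive estimate in both layers. Its control granulosa values were 1034, 848, 1106 and 1054 in sheep 244, 246, 268 and 224, against 2587, 956, 1220, 1345 and 1352 in sheep 209, 210, 230, 276 and 315. Sheep 209 lay far above the others, and the estimate of 0.48 ± 0.26 (adjusted p = 0.875) became 0.26 ± 0.14 (adjusted p = 0.738) without it. In theca cells it was 0.24 ± 0.16 (adjusted p = 0.701) and 0.09 ± 0.11 without sheep 209. HDAC2 stood at -0.29 ± 0.20 in granulosa and -0.12 ± 0.18 in theca cells, and at -0.14 ± 0.13 and 0.03 ± 0.12 without sheep 209. HDAC3 stood at 0.09 ± 0.13 in granulosa and -0.12 ± 0.11 in theca cells, and at 0.16 ± 0.10 and -0.14 ± 0.11 without sheep 209. HDAC8 stood at -0.11 ± 0.28 and -0.17 ± 0.17, and at 0.069 ± 0.22 and -0.070 ± 0.14 without sheep 209.

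The remaining class IIa members, HDAC4, HDAC7 and HDAC9, had estimates below 0 that did not pass in either layer. HDAC9 in granulosa cells was -0.74 ± 0.48 (adjusted p = 0.875), from 167, 157, 135 and 208 in controls (sheep 244, 246, 268 and 224) and 36.8, 170.1, 176, 60.7 and 134 in prenatal T animals (sheep 209, 210, 230, 276 and 315). The low values belong to sheep 209 and 276, and the other prenatal T animals lie within or at the edge of the control range. Without sheep 209 it was -0.40 ± 0.34. HDAC7 in granulosa cells was -0.23 ± 0.46 with all animals and -0.56 ± 0.34 without sheep 209 (adjusted p = 0.758). HDAC7 in theca cells was -0.15 ± 0.20 with all animals and -0.33 ± 0.14 without sheep 209 (unadjusted p = 0.0351, adjusted p = 0.395), since that animal held the highest HDAC7 level of the layer, 1536 against 678 to 1200. HDAC4 was -0.05 ± 0.20 in granulosa and -0.11 ± 0.20 in theca cells, and without sheep 209 the theca value was -0.28 ± 0.14 (adjusted p = 0.451).

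HDAC6 was -0.18 ± 0.18 in granulosa and -0.28 ± 0.14 in theca cells (adjusted p = 0.650), and HDAC11 was -0.20 ± 0.37 and -0.33 ± 0.20 (adjusted p = 0.677). Without sheep 209 the granulosa values were -0.065 ± 0.13 for HDAC6 and -0.44 ± 0.29 for HDAC11. In theca cells the HDAC6 values were 551, 534, 526, 458 and 539.9 in control sheep 139, 244, 246, 268 and 224 and 338, 526, 431, 479 and 395 in prenatal T sheep 209, 210, 230, 276 and 315. The groups overlap through control sheep 268 and prenatal T sheep 210 and 276.

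The effect of prenatal T did not differ between the layers for any member past the threshold, in a test that called 0% of 16269 genes (881 at an unadjusted p under 0.05, and 18 called by DESeq2 and 0 by edgeR). The estimates, granulosa effect minus theca effect, ran from -0.70 for HDAC9 to 0.24 for HDAC1, and without sheep 209 from -0.25 for HDAC7 to 0.28 for HDAC3. Without sheep 209 the lowest p values of the limma fit were those of HDAC3 (0.28 ± 0.11, unadjusted p = 0.0162, adjusted p = 0.480) and HDAC5 (0.21 ± 0.10, unadjusted p = 0.0438, adjusted p = 0.533). For HDAC3, the mean granulosa minus theca difference within animals was -0.10 ± 0.17 in controls (SD, n = 4) and 0.16 ± 0.14 in prenatal T animals (n = 4).

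The order of the animals was shared between layers for some members. Of the animals with both layers, sheep 244 had the highest HDAC4 in both layers without sheep 209 (959 and 855) and sheep 230 the lowest (542 and 486). Sheep 246 had the highest HDAC5 in both layers (3405 and 3164) and the lowest HDAC1 in both (848 and 1351). HDAC7 was lowest in sheep 276 in both (182 and 678) and highest in sheep 244 (733 and 1200). The highest HDAC1 and the lowest HDAC5 fell on different animals in the layers. No match at either end was seen for HDAC2, HDAC3, HDAC6 and HDAC8. HDAC8 was highest in granulosa cells in sheep 246 (341) and highest in theca cells in sheep 268 (220). Log2 deviations from the mean of layer and treatment were also correlated between layers over 8 animals without sheep 209. Pearson's r was 0.91 for HDAC4, 0.79 for HDAC2, 0.44 for HDAC11, 0.32 for HDAC6, 0.10 for HDAC3 and -0.08 for HDAC8.

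Genes with the most similar pattern were found over 17 libraries without sheep 209, among 10374 genes with a mean of at least 100, by Pearson's r of log2 values. These libraries share animals and both layers, so r is given as a description. For HDAC7 the closest genes were WNT5A (0.97), SLC24A3 and ARHGAP25 (both 0.96), and for HDAC9 they included OLFML2A (0.96) and WNT5A (0.95). For HDAC11 they included CCDC102A (0.95) and NFIX (0.94). For HDAC1 they were KCTD20 (0.93), SLC25A4 and ANXA6 (both 0.91), and for HDAC2 CAPRIN1, RCN2 (both 0.95) and ASB9 (0.94). HDAC4 was closest to MYO9B (0.91), TRIO (0.90) and MZF1 (0.89), HDAC5 to PRXL2A (0.90), NATD1 (0.88) and CACNB3 (0.87), and HDAC6 to EFNB2 (0.84), ZSCAN25 (0.83) and POLG (0.81). HDAC3 was closest to FKBP9 (0.69), CHMP2A (0.68) and BABAM1 (0.65), lower values than those of the members above. For HDAC8 the genes included GKAP1 (0.77) and TSNAX (0.76).

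Partners of the deacetylases were read from 12 lists covering their complexes, kinases, docking factors and substrates. Between layers 62 of 100 listed genes passed, 36 higher in granulosa and 26 higher in theca cells, next to 57.2% of all genes, and the median difference over all genes was 0.03. The lists are described by their counts and medians, and none is set apart from other genes by a test.

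Lists of class I complexes mostly held small differences in both directions. For CoREST, 5 of 7 were higher in granulosa cells and 1 in theca cells (median 0.26): the scaffold RCOR1 stood at 918 ± 158 in granulosa (SD, n = 9) and 626 ± 75.4 in theca cells (n = 10), a difference of 0.54 ± 0.06, and its paralog RCOR2 at 127 ± 57.4 and 301 ± 111, a difference of -1.15 ± 0.21. PHF21A (0.37) and the demethylase KDM1A (0.26) followed RCOR1. For NuRD the counts were 4 and 2 of 11 (median 0.019), with the subunits GATAD2A (0.49), RBBP4 (0.33) and MBD3 (0.25) higher in granulosa cells and the remodeller CHD3 (-0.29) higher in theca cells. For SIN3 they were 6 and 3 of 12 (median 0.13), with ING2 (0.40) and BRMS1 (0.34) against BRMS1L (-0.96) and SAP30L (-0.49). In the complex of HDAC3, the scaffold NCOR1 (0.29) and its partner TBL1X (0.19) were higher in granulosa cells. In the MiDAC and MIER list 2 of 5 were higher in granulosa cells, MIER1 (0.18) and DNTTIP1 (0.16), and none in theca cells (median 0.14). The cohesin list, which holds the substrate of HDAC8 and its regulators, had 4 higher in granulosa cells and 2 in theca cells of 11 (median 0.10), among them the acetyltransferase ESCO2 (1.15), PDS5A (0.42), WAPL (0.31) and PDS5B (-0.45).

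Larger differences lay among the partners of class IIa. For MEF2 factors, 3 of 4 were higher in theca cells and none in granulosa cells (median -1.04). MEF2C stood at 428 ± 194 in granulosa and 1463 ± 231 in theca cells (-1.88 ± 0.14), MEF2A at 1464 ± 131 and 1890 ± 333 (-0.35), and MEF2B at 7.94 ± 4.43 and 29.0 ± 21.6 (-1.73). MEF2D had a value of -0.18 and did not pass. Of 13 kinases that act on class IIa enzymes, 6 were higher in theca and 4 in granulosa cells (median -0.25). The calcium-dependent kinases CAMK4 (-2.75), CAMK2D (-1.29) and CAMK2G (-0.75) and the protein kinase D member PRKD1 (-1.05) were on the theca side, and the salt-inducible kinases SIK2 (0.43) and SIK3 (0.52), the calcium-dependent kinase CAMK1D (0.74) and MARK2 (0.48) on the granulosa side. Of 6 tested 14-3-3 proteins, YWHAE (0.47) and YWHAQ (0.39) were higher in granulosa cells and none in theca cells (median 0.05).

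Repressors that recruit deacetylases to DNA included the largest differences of the 12 lists, with 7 of 11 higher in theca cells and 2 in granulosa cells (median -0.80). RUNX1T1 stood at 57.0 ± 29.5 in granulosa and 706 ± 146 in theca cells (-3.70 ± 0.18), HIC1 at 230.4 ± 107 and 1439 ± 260 (-2.74 ± 0.17), CBFA2T3 at 51.3 ± 26.0 and 331 ± 133 (-2.68 ± 0.15), and ZEB1 at 1094 ± 211 and 2074 ± 272 (-0.91 ± 0.09). Of the sirtuins, deacetylases of another chemistry that use NAD, 4 of 7 were higher in granulosa cells and none in theca cells (median 0.33): SIRT1 (0.33), SIRT3 (0.56), SIRT5 (0.59) and SIRT7 (0.70). For HDAC6 partners the counts were 1 and 1 of 9 (median 0.012), the ATPase VCP (0.20) and the tubulin TUBA4A (-0.88). Without sheep 209, 69 of 100 passed, and the directions of the genes named for this comparison stayed.

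**Figure D5:**
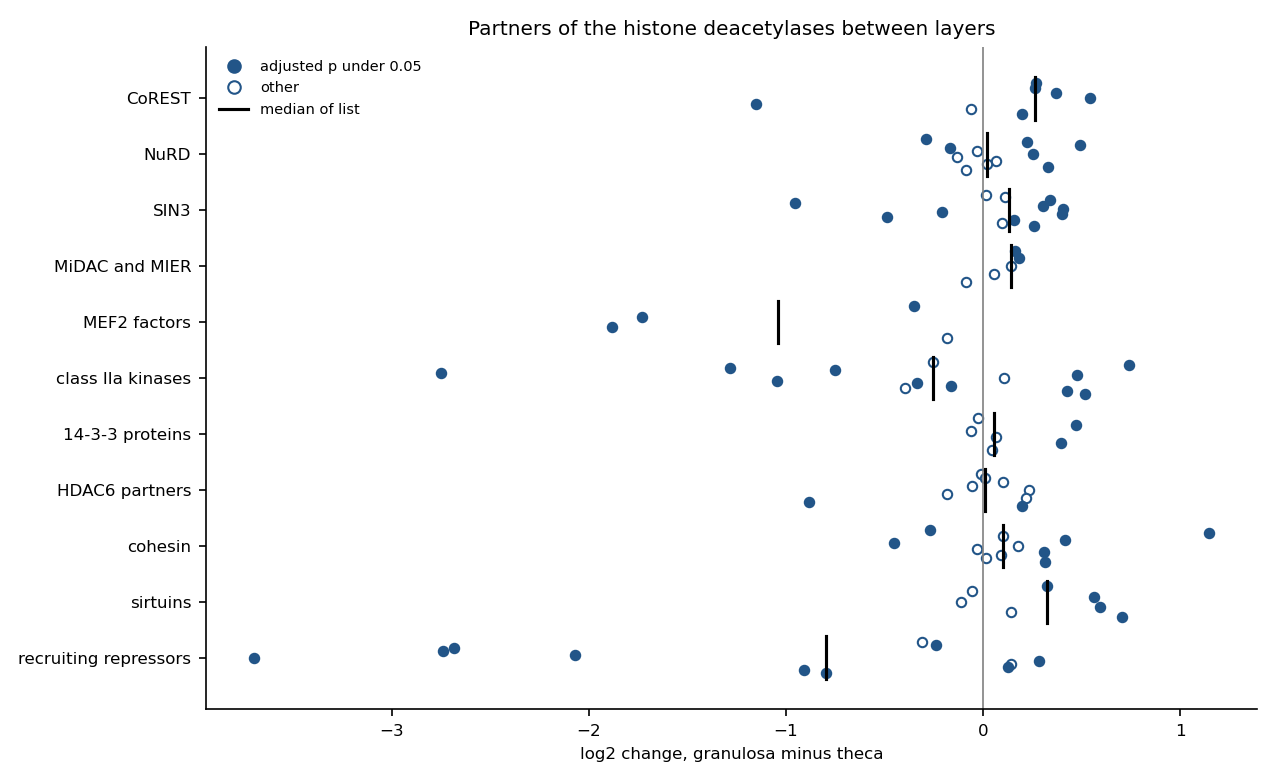
Difference between granulosa and theca cells on the log2 scale (horizontal axis) for each tested gene of 11 of the 12 lists of histone deacetylase partners, filled where the adjusted p is under 0.05, with a black bar at the list median. MEF2 factors (median -1.04) and recruiting repressors (median -0.80) reach far to the theca side, and sirtuins (median 0.33) and CoREST (median 0.26) lie mostly on the granulosa side.

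After prenatal T, 0 of 98 listed genes passed in granulosa cells and 0 of 100 in theca cells. SIK2, a kinase of class IIa enzymes, stood at -0.65 ± 0.26 in granulosa (unadjusted p = 0.0330) and -0.48 ± 0.17 in theca cells (unadjusted p = 0.0163). MTA1 of NuRD stood at -0.34 ± 0.14 and -0.48 ± 0.13, the latter with the lowest unadjusted p of the lists (0.00414). ATAT1, the enzyme that acetylates the tubulin residue cleared by HDAC6, stood at -0.60 ± 0.24 and -0.48 ± 0.21, and the 14-3-3 protein YWHAZ at 0.53 ± 0.24 and 0.41 ± 0.16. Other genes of small unadjusted p were the 14-3-3 protein YWHAB (0.45) and RCOR2 (-0.69) in granulosa cells and MIER1 (0.31) and SIRT3 (-0.48) in theca cells. All of these had adjusted p = 0.875 in granulosa and 0.644 in theca cells, in the layers for which they are named. Their values are those with all animals. By limma, genes at an unadjusted p under 0.05 fell without sheep 209 from 2 to 0 for NuRD and from 1 to 0 for CoREST in granulosa cells. In theca cells they fell from 1 to 0 for HDAC6 partners. For every other list and layer the number stayed or rose, as from 0 to 3 for recruiting repressors in theca cells. Genes at large rose too by limma, from 4.22% to 7.01% of genes tested in granulosa and from 7.69% to 12.1% in theca cells. The median of the HDAC6 partners was 0.15 in granulosa and 0.07 in theca cells with all animals and -0.10 and -0.13 without sheep 209. That of the recruiting repressors was -0.24 and -0.14 with all animals and -0.23 and -0.30 without sheep 209. By estimate 35 of 98 listed genes lay above 0 in granulosa and 46 of 100 in theca cells.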

How the data were processed

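Microdissected granulosa and theca cells gave total RNA, which was depleted of ribosomal RNA and sequenced from stranded libraries, per the labels' protocols. Values in the deposited table are a signal, read counts per gene after the authors scaled each library by its size factor. Per the submitters' processing notes, the tools were STAR 2.6.0c, featureCounts (Subread 1.6.1), DESeq2, FastQC 0.11.5 and MultiQC 0.9. The genome build, and whether counting used the strand, are not given in the sources used here. All values (100%) came out as whole reads after division by the value of 1 read in that library (relative tolerance 1e-06), and 0 columns of values lacked a sample. SD and SE describe the spread between animals, in which the counting error from depth is contained.

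Genes that reached 10 in 5 or more of the libraries fitted were tested with limma 3.58.1 (R 4.3.3, mean-variance trend, two-sided) on log2 of the value plus 1, because normalized values call for a log scale. Tests were run within each layer for prenatal T, and over 4 groups with the animal as a random block (duplicateCorrelation) for the layers and for the difference of effects. P-values were adjusted by Benjamini-Hochberg over all genes of a comparison at 0.05. The layers pair by the sheep number of the labels, and the consensus correlation of an animal's layers was 0.62. Alternatives were pseudocounts of 0.5 and 8, no filter, TMM rescaling, other treatments of the block, each animal left out, and edgeR 4.0.16 (quasi-likelihood) and DESeq2 1.42.0 on the recovered reads. The tests were also run on simulated data. Those libraries were drawn independently, with no effect shared by the layers of an animal, so the run could not check the block.

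The members and the lists of partners and markers were chosen with earlier results of these data known. Genes named are the 10 members in every comparison, from each list up to 4 of smallest p between layers and up to 2 in each prenatal T comparison, and for each member the 3 genes of highest Pearson r. Some genes that this rule selects are not reported here.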

Additional observations from a re-analysis of the deposited data

Results flagged for a closer look

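Within groups of 4 or 5 libraries, 40 groups in all, 3 values lay far from the others of their group by Dixon's ratio, the gap to the nearest library divided by the range of the group (critical values 0.829 for 4 and 0.710 for 5 libraries). Chance flags about 1 in 20 groups. In prenatal T granulosa cells, HDAC1 stood at 2587 in sheep 209 with the nearest library at 1352 (ratio 0.757), and HDAC5 at 1361 in sheep 209 with the nearest at 2329 (ratio 0.725). In control theca cells, HDAC6 stood at 457.6 in sheep 268 with the nearest library at 526 (ratio 0.731). The values of sheep 209 come from the libraries with AMH, FSHR, CYP19 and CYP17A1 at 0.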

How the results depend on the processing

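Between layers, HDAC1, HDAC2, HDAC7, HDAC9 and HDAC11 kept their direction and passed under all 20 alternatives, and 5 to 8 of the 10 members passed in each. HDAC8 passed under 13 of 20 (also lost without a filter, at 0.30), HDAC5 under 3, each of them without sheep 209, and HDAC4 under 1, edgeR without sheep 209. Without the replicate block the layer test called 5729 genes. With the block, prenatal T in granulosa cells called 1 gene, and without it the mean over both layers called 2. The replicate block changed no call of a member other than HDAC8, which was lost without the block (0.29) and with the animal as a fixed term (0.31). The cause was not tested.

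No member passed for prenatal T, or for the difference of its effect between layers, under any alternative run. All-gene counts moved with the tool: DESeq2 called 16 (granulosa), 9 (theca) and 18 (difference of effects), and without sheep 209 it called 32, 57 and 31. For the difference, a pseudocount of 0.5 gave 3 genes, no filter 2, and leaving out 1 animal 0 to 1. Several small estimates changed sign, none of them called, and the cause was not tested. Leaving out each animal, prenatal T changes in granulosa cells ran from -0.26 to 0.069 for HDAC8, -0.14 to 0.088 for HDAC4 and -0.56 to 0.094 for HDAC7, and in theca cells from -0.19 to 0.034 for HDAC2. Differences of effects ran from -0.10 to 0.28 for HDAC11, -0.094 to 0.24 for HDAC8, -0.025 to 0.14 for HDAC6, -0.0044 to 0.21 for HDAC5, -0.31 to 0.096 for HDAC7 and -0.0098 to 0.21 for HDAC4, and the layer difference of HDAC3 from -0.057 to 0.021. Without sheep 209, edgeR and DESeq2 gave 0.068 and 0.071 for HDAC8 in granulosa cells, 0.038 and 0.035 for HDAC2 in theca cells, -0.067 and -0.099 for the HDAC11 difference of effects and 0.056 and 0.030 for the HDAC3 layer difference, which was 0.0084 by edgeR with all animals. Depth limits HDAC11 and HDAC9 most, at 29 and 32 reads in their lowest libraries.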
